A study of Homo sapiens with 8 samples.

Results

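The peaks described here are those of the day 3 list set against the day 0 list of an ATAC-seq time course in G401 cells, and they number 198350 of the 411408 peaks deposited for the series. The peaks were told apart by the list named in the fourth column of the deposited file. The list that names no day was taken as day 0, and every statement on day 0 rests on that reading. A peak was counted as kept where it shared at least 1 bp with a peak of the other list, as gained where a day 3 peak shared none, and as lost where a day 0 peak shared none. By this rule 68425 day 3 peaks and 68948 day 0 peaks were kept, 49181 day 3 peaks (41.8%) were gained and 11796 day 0 peaks (14.6%) were lost, of 117606 and 80744 peaks in the lists.

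G401 is an established human cell line grown from a renal rhabdoid tumour. The labels describe 1 stable line with inducible SMARCB1 re-expression, kept in serum free of tetracycline, and both groups are taken to be that line. The day 0 group (SMARCB1 -/-) was sampled without induction and the day 3 group (SMARCB1 +/+) after 3 days in 1 µg/ml doxycycline, with 2 replicates of 100000 cells in each. The labels do not say whether the replicates were separate cultures, nor whether a clone or a pool of cells was used. No group received doxycycline without the SMARCB1 construct, so the drug and the protein cannot be told apart. The file holds 1 list per day and no value per replicate, so replicate error is unknown and no p-value is given.

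SMARCB1 is a core subunit of the SWI/SNF complexes, which use ATP to slide and evict nucleosomes and so open DNA to other proteins. Rhabdoid tumours are driven by its loss, and enhancers away from promoters are the elements known to depend on it most. AP-1, named in the title of the series, is a family of FOS and JUN dimers that can bind closed DNA and recruit SWI/SNF. ATAC-seq reads such opening directly, because a transposase cuts accessible DNA and tags the ends, and a peak is a stretch where these reads pile up. No genome or annotation of hg19, the build of the files, was used here, so positions are given without genes, motifs or sequence.

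Each peak carries the authors' fold, which is the pile-up at the summit over the local background of the same list. Summit reads were worked back from that fold and the caller's p. Scaled height below means these reads over the list's genome-wide background. That background was 6.34 reads on day 0 and 6.73 on day 3, a ratio of 1.06. The weakest peak had a -log10 q of 2.44 on day 0 and 2.01 on day 3. With a -log10 q of at least 5 in both lists, 41797 peaks were gained and 9345 were lost. Beyond that, the part of the differences in background and weakest q in the longer day 3 list was not tested. Intervals in brackets are 95% intervals that cover the drawing of peaks or the counting of reads, never the spread between replicates.

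The day 3 list held more gained peaks than the day 0 list held lost ones, and by fold the gains reached into strong peaks while the losses hardly did. Among peaks with a fold of at least 6, 4236 of 21417 day 3 peaks were gained (19.8%), against 2 of 16548 day 0 peaks lost (0.0121%). The share gained fell with strength, from 56.0% (55.4 to 56.5) at folds under 3 to 17.3% (16.3 to 18.4) at folds of 8 to 10 and 14.5% (12.5 to 16.6) at folds of 10 or more. The share lost fell much faster, from 30.2% (29.6 to 30.8) at folds under 3 to 4.26% (3.90 to 4.64) at folds of 4 to 5 and 0.418% (0.295 to 0.576) at folds of 5 to 6. None of the 1107 day 0 peaks with a fold of 10 or more was lost, for which the upper bound is 0.333%. With only the 80744 day 3 peaks of highest -log10 q, 23598 were gained and 22621 day 0 peaks were lost. Lists of equal length force these counts to be nearly equal, so they do not show whether the excess of gains comes from the length of the list.

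**Figure D1:**
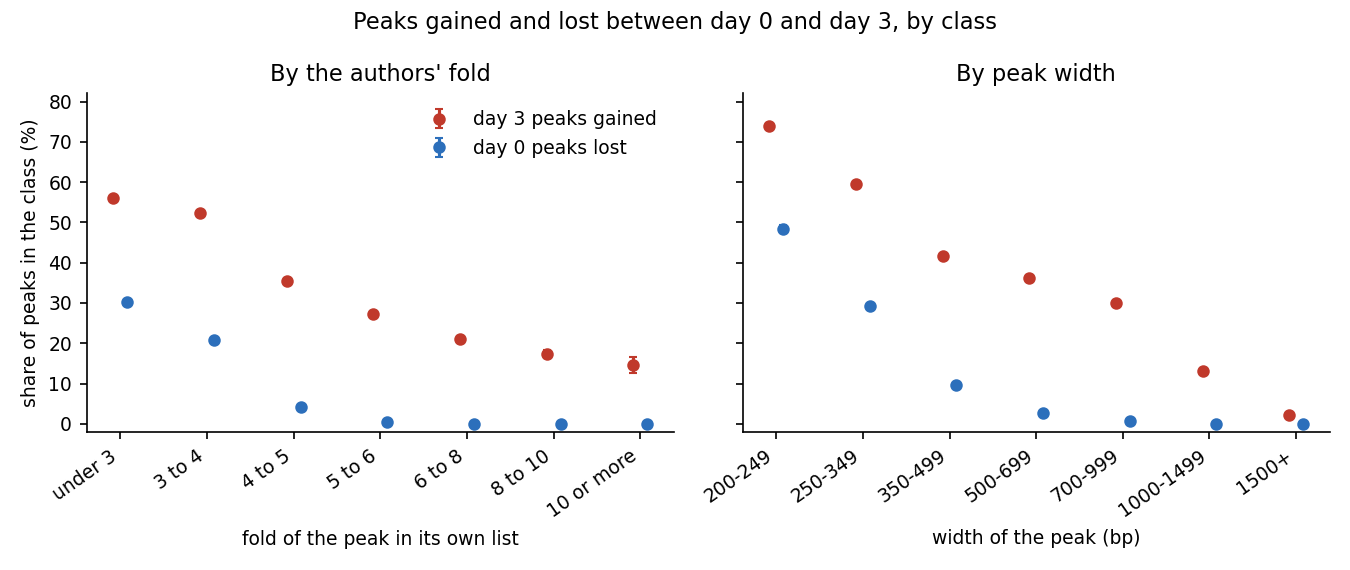
Share of day 3 peaks gained (red) and of day 0 peaks lost (blue), in classes of the authors' fold (left) and of peak width in bp (right), with bars for the exact 95% binomial interval. Both shares fall from left to right, the lost share to 0 in the highest classes, and in every class shown the share gained is above the share lost.

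Strength by height gave another picture of the losses, because fold divides by the local background. At a scaled height of at least 10, 7699 peaks were gained and 1138 were lost, or 15.7% of all gained and 9.65% of all lost peaks. How many peaks of that height each list held in all is not given, so these are not shares of tall peaks. These lost peaks stood in regions that were raised as a whole, with a median local background of 6.03 times the genome-wide one, a median fold of 2.00 and a median width of 280 bp. Of these, 52.2% lay within 1000 bp of a day 3 peak. The gained peaks of that height had a local background of 2.75 times the genome-wide one, a median fold of 4.78 and a width of 692 bp, and 15.4% lay within 1000 bp of a day 0 peak. The day 3 list is longer, so these shares within 1000 bp are not compared.

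Gained peaks were intermediate in width between lost and kept ones. The median width was 358 bp for gained peaks, with a 5th to 95th percentile of 205 to 927 bp. Lost peaks had a median of 264 bp and 42.0% of them were at most 250 bp wide, against 21.2% of gained peaks. Kept peaks had a median width of 506 bp on day 0 and 574 bp on day 3. The shortest peak in the file was 200 bp, so the narrow end of each class is set by the caller. Wide gains were uncommon: 1720 gained peaks (3.50%) reached 1000 bp, against 14952 kept day 3 peaks (21.9%) and 5 lost ones. Of the 4376 day 3 peaks of at least 1500 bp, 98 were gained (2.24%, 1.82 to 2.72).

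At equal fold, gained peaks were still narrower than kept ones. At folds of 3 to 4 the median widths were 339 bp for gained and 469 bp for kept day 3 peaks. At folds of 4 to 5 they were 488 and 582 bp, at folds of 6 to 8 they were 754 and 813 bp, and at 10 or more 823 and 866 bp. Gained peaks were the narrower in all 7 fold classes, with no steady trend of the gap across them. The 4236 strong gained peaks had a median width of 769 bp, a median of 75 summit reads and a median scaled height of 11.2. For the 17181 strong kept day 3 peaks the medians were 833 bp, 102 reads and 15.2. Equal fold was thus not equal height, and widths at equal height were not compared.

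Summits sat near the middle of the peak in all classes, with overlapping intervals for strong gained and strong kept peaks. The median summit of gained peaks lay at 0.490 of the width, counting from the lower coordinate, with quartiles of 0.381 and 0.600. With each peak cut into 3 equal parts, the summit fell in the middle part in 69.3% of gained peaks (68.9 to 69.7), 64.4% of lost peaks (63.5 to 65.3) and 74.0% of kept day 3 peaks (73.6 to 74.3). Among peaks with a fold of at least 6 it did so in 83.2% of gained (82.1 to 84.4) and 82.7% of kept day 3 peaks (82.1 to 83.3). In bp the median offset from the centre was 40 for gained, 33.5 for lost and 54 for kept day 3 peaks, and among those of fold at least 6 it was 61.5 for gained and 66 for kept ones.

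**Figure D2:**
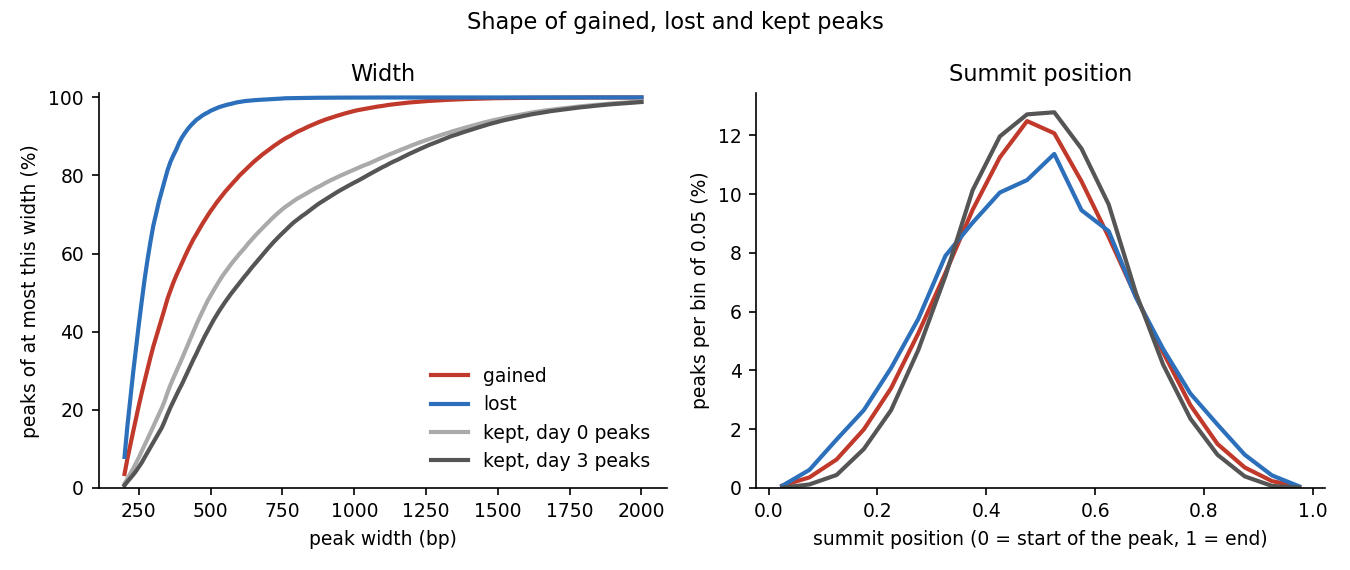
Left, cumulative share of gained (red), lost (blue) and kept (light grey for day 0, dark grey for day 3) peaks by width in bp; right, share of gained, lost and kept day 3 peaks by summit position as a fraction of the width, in bins of 0.05. Lost peaks are the narrowest, kept peaks the widest, and the 3 position curves are centred near 0.5, with lost peaks the most spread out.

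Summits of matched kept peaks mostly lay close together. Of the kept peaks, 65371 pairs matched 1 day 0 peak to 1 day 3 peak, and in these the summit moved by a median of 33 bp. The shift was at most 50 bp in 57.9% of pairs and over 200 bp in 4.99%. Pairs had to overlap, which itself bounds the shift. A site that moved out of overlap would count as 1 lost and 1 gained peak, so such moves are not seen here. Widths changed by a median ratio of 1.03, or 22 bp, but the tails were unequal: 3408 pairs (5.21%) were at least 2-fold wider on day 3 and 530 (0.811%) at least 2-fold narrower. Widening was greatest at narrow day 0 peaks. The 15590 pairs whose day 0 peak was under 350 bp had a median width ratio of 1.24, and the 11928 whose day 0 peak was at least 1000 bp had a ratio of 1.00. A narrow peak has more room to widen above the 200 bp minimum than to shrink, and the part of that in the ratio was not tested.

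New open bases lay mostly in new sites. Of the 28.4 Mb covered on day 3 alone, 21.5 Mb (75.8%) were in gained peaks and 6.87 Mb in the margins of kept ones. Of the 6.87 Mb covered on day 0 alone, 3.41 Mb (49.6%) were in lost peaks and 3.46 Mb in margins of kept peaks. Few peaks lay near the 1 bp limit. Only 163 kept day 3 peaks shared at most 50 bp with day 0 peaks. Similarly, 129 gained peaks lay within 50 bp of a day 0 peak. A stricter rule moved more peaks. With a reciprocal overlap of at least 50%, 18997 day 0 peaks were lost against 11796, and 108 strong ones against 2.

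A small part of the kept peaks were joined or split by day 3. Of the 68425 kept day 3 peaks, 1377 overlapped at least 2 day 0 peaks. Of the 68948 kept day 0 peaks, 878 overlapped at least 2 day 3 peaks. Only 39 day 3 peaks spanned 3 or more day 0 peaks. The single peak over 4 day 0 peaks was chr19:6736479-6739356, 2878 bp wide, where the highest summit held 252 reads on day 0 and 247 on day 3. At chr1:172384353-172387347, over 3 day 0 peaks, the highest summits held 156 and 140 reads. At chr10:73679312-73681852, also over 3 day 0 peaks, they held 128 and 145 reads, or scaled heights of 20.2 and 21.6. In these 3 spans the day 0 peaks already covered 2455, 2757 and 2514 bp.

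Gained peaks lay farther from day 0 peaks than these lay from each other. The median distance from a gained peak to the nearest day 0 peak was 8534 bp (8420 to 8662), and from a day 0 peak to its nearest day 0 neighbour 5574 bp (5515 to 5626). From a lost peak to the nearest day 3 peak the median was 3667 bp (3519 to 3797). The day 3 list is longer, which by itself shortens distances to it, so the distances of gained and lost peaks are not compared. Within the day 0 list, lost peaks lay 5794 bp and kept ones 5529 bp from their nearest neighbour at the median. Within 1000 bp of the other list stood 9.84% of gained and 21.7% of lost peaks, shares under the same limit. Gained peaks of fold at least 6 lay at a median of 19678 bp (18885 to 20474), and 348 of them (8.22%) were over 100000 bp from any day 0 peak.

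Distance and strength went together in the authors' fold but not in summit height. Of the gained peaks within 500 bp of a day 0 peak, 1.09% (0.720 to 1.58) had a fold of at least 6, which rose to 3.20% at 1000 to 5000 bp, 12.4% (11.9 to 12.9) at 10000 to 50000 bp and 19.5% (17.7 to 21.4) beyond 100000 bp. Over the same 4 classes the median summit went from 46 reads to 46, 32 and 30, so remote gains held fewer reads. The local background was 2.27, 2.08, 1.12 and 1.00 times the genome-wide one. The remoteness of gains with high folds therefore moves with the lower background there, and the part of that background was not tested. Strength by height showed the reverse order, with median distances of 4898 bp for gained peaks of scaled height 10 or more and 8534 bp for all gained peaks.

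**Figure D3:**
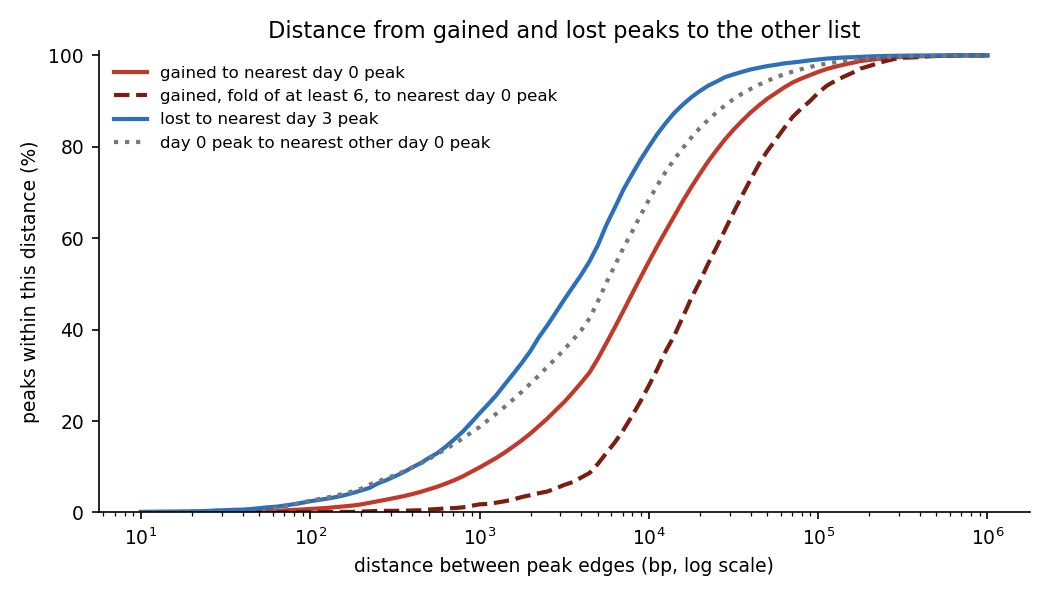
Cumulative share of peaks by the distance in bp (log scale) between peak edges, for gained peaks (red), gained peaks with a fold of at least 6 (dark red, dashed), lost peaks to the day 3 list (blue) and day 0 peaks to their nearest day 0 neighbour (grey, dotted). At 10000 bp the curves stand at 54.9%, 27.7%, 80.0% and 68.4%, in that order. The blue curve is measured to the longer day 3 list, so it is not compared with the red ones.

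Some gains lay in the long stretches without any day 0 peak. Between neighbouring day 0 peaks there were 5305 gaps of at least 100 kb, of which 3523 (66.4%) held at least 1 gained peak. Of the 189 gaps of at least 1000 kb, 121 (64.0%) did, no larger a share although such gaps have more room. Gaps of at least 100 kb held 11073 of the 49181 gained peaks, and those of at least 1000 kb held 309. Gains per Mb were not computed, so these shares do not show gains to be as dense there as elsewhere. In fixed windows of 100 kb, day 3 had more peaks in 14157 of the 20896 windows with any peak (67.7%), fewer in 1774 (8.49%) and as many in 4965. Of these windows, 2512 had no day 0 peak and 266 no day 3 peak. The day 3 list held 1.46 times as many peaks as the day 0 list, which by itself favours windows with more on day 3.

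Spacing between gained peaks resembled their spacing from day 0 peaks. The median distance from a gained peak to the nearest other gained peak was 9325 bp, with quartiles of 3475 and 21994 bp. Lost peaks were sparser, at a median of 33669 bp from each other. When gained peaks with gaps of up to 10000 bp were joined, 33537 groups formed. Single peaks made up 23536 of them, pairs 6639, and 3362 had at least 3 peaks. The last held 12367 peaks, or 25.1% of all gained peaks. Among lost peaks 152 groups held at least 3, and the largest held 6. A list with more peaks per Mb forms larger groups, so these counts do not compare the classes at equal density.

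Of the 5 largest groups, 2 held a gained peak with a fold of at least 6. The group of 13 gained peaks at chr1:211775405-211823826 spanned 48.4 kb, and its gained folds ranged from 2.31 to 4.58. It held 4 day 0 peaks, none of them lost, with a highest fold of 6.12. The 12 gained peaks at chr6:154907579-154975392 had folds of 2.87 to 7.45 around 3 day 0 peaks, 1 of which was lost. The 12 at chr5:131750721-131817301 had folds of 2.33 to 6.05 around 3 day 0 peaks. By contrast chr6:88416164-88473870 held 0 day 0 peaks and 12 gained ones with folds of 2.39 to 5.73. In the same span the day 1 and day 7 lists had 8 and 6 peaks in all, not matched to the gained ones. The fifth, at chr3:99628666-99680400, held 11 gained peaks and 1 day 0 peak, which was kept. The highest scaled height in that span was 4.57 on day 0 and 24.8 on day 3.

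The 100 kb window with most gains among those without a day 0 peak was chr5:153600001-153700000, picked after its values were seen. It had 14 peaks on day 3, and 13 and 14 on days 1 and 7. The highest day 3 summits held 145 reads at chr5:153623070-153623947, 145 at chr5:153665097-153665913, 137 at chr5:153646770-153648102 and 134 at chr5:153666314-153667150. Their scaled heights of 19.9 to 21.6 stood against a median of 7.73 for all day 3 peaks. The highest fold in the window was 7.54, at chr5:153694554-153695475 with 131 reads, and the lowest was 2.07. Across the genome, 14 windows without a day 0 peak held at least 10 gained peaks, among them chr4:25600001-25700000, chr5:78000001-78100000 and chr6:38300001-38400000 with 12 each.

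**Figure D4:**
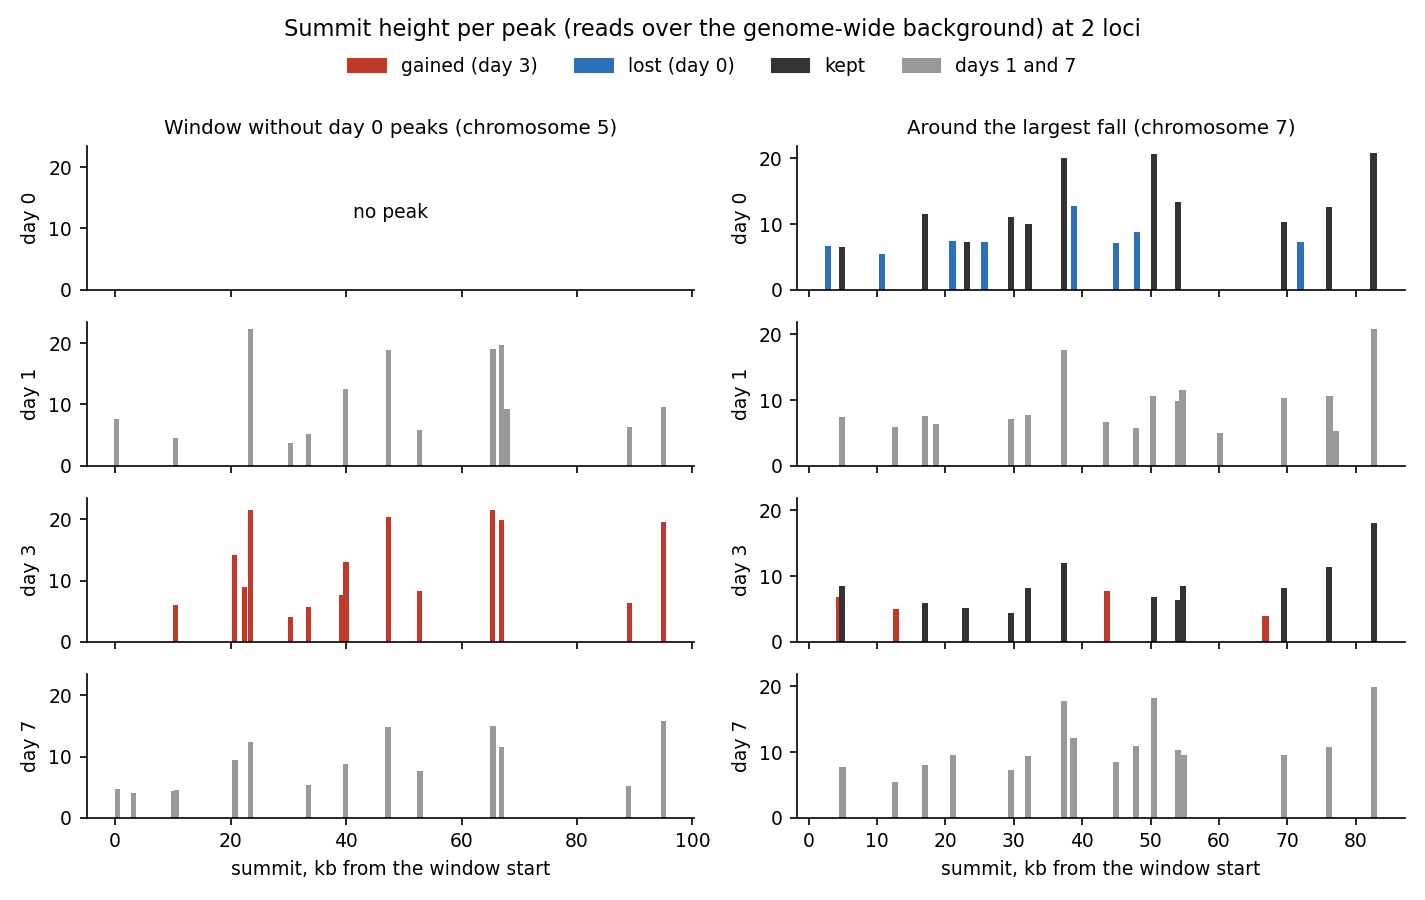
Scaled summit height of each peak (summit reads over the genome-wide background) against its position in kb from the window start, for days 0, 1, 3 and 7 from top to bottom; red is gained, blue lost, dark grey kept, and light grey marks days 1 and 7. The chromosome 5 window (left) is empty on day 0 and has 14 peaks on day 3; in the chromosome 7 stretch (right) 8 day 0 peaks are lost and most kept peaks are lower on day 3.

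The single gained peaks with the highest folds were tall and wide among gained peaks, at distances from day 0 peaks that ranged widely. The 10 leading peaks had folds of 12.3 to 13.2, widths of 540 to 894 bp, 98 to 120 summit reads, and a summit in that middle part of the peak in 10 of 10. The highest was chr9:79433071-79433670, with 114 reads and a fold of 13.2, lying 7344 bp from the nearest day 0 peak. It had 67 reads on day 1 and 78 on day 7, or scaled heights of 11.1, 16.9 and 12.8 on days 1, 3 and 7. At chr4:97657401-97658133, 107 reads gave a fold of 13.0, and the nearest day 0 peak was 565778 bp away. That peak stood at scaled heights of 12.1, 15.9 and 11.8 on days 1, 3 and 7. Next was chr5:105089511-105090177, with 98 reads on day 3, and with 69 and 46 on days 1 and 7.

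The other 7 were chr11:89169180-89169719, chr2:186834863-186835756, chr3:176279824-176280664, chr4:122332270-122333051, chr10:4473392-4474165, chr2:41086705-41087502 and chr14:57133236-57133886. The tallest of the 10 was the chromosome 3 peak, with 120 reads on day 3 against 65 on day 1 and 60 on day 7. All 10 had a peak on days 1 and 7, with scaled heights of 7.28 to 12.1 and 7.21 to 12.8, below the 14.6 to 17.8 of day 3. They were picked for a high day 3 fold, which favours a high day 3 value, so this order is a description only. The share of all gained peaks that overlap a day 1 or day 7 peak was not set beside them. Recurrence is therefore not shown to be particular to these 10.

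The height of such peaks can be set against the calling limit of the day 0 list. With the local background of day 3 carried over to day 0, 18 to 21 summit reads would have passed that limit at the 10 peaks. Their day 3 heights were 4.86 to 5.39 times that limit after scaling. This comparison assumes that a day 0 summit over the limit would also have met the minimum width and would have stayed in the deposited list. It allows neither for counting error nor for the choice of peaks by their day 3 fold, so it is not a lower bound on the rise. The names of day 0 peaks skip 196 numbers, and such a skip fell in the day 0 gap around 69 of the 49181 gained peaks and around 9 of the 4236 strong ones.

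Among strong gains, the one farthest from day 0 was chr4:62371661-62372449, 699922 bp from the nearest day 0 peak, with 74 reads and a fold of 8.43. Next came chr12:87551526-87552011 at 690088 bp with 48 reads, and chr13:59254220-59255308 at 580939 bp with 72 reads. The fourth was the chromosome 4 peak with 107 reads named above, and the fifth was chr4:30838499-30839178 at 533326 bp with 57 reads. All 5 had a peak on days 1 and 7, at scaled heights of 4.30 to 12.1 on day 1 and 5.57 to 11.8 on day 7. Each thus had peaks on all 3 induced days in a long stretch with none on day 0. No share for all strong gains was set beside this.

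The 5 widest gained peaks had summits of 106 to 195 reads and folds of 3.98 to 5.37, above the gained median of 3.30 and below the folds of the 10 peaks above. The widest was chr17:26596835-26599053, at 2219 bp with 122 reads and a fold of 5.25 over a local background of 22.4 reads. It was followed by chr2:72152305-72154502 at 2198 bp, with 106 reads and a fold of 3.98, and chr14:77131721-77133875 at 2155 bp, with 118 reads and a fold of 5.04. At chr2:201630055-201632081 the summit held 141 reads. The fifth, chr2:38659048-38661006, held 195 reads, a scaled height of 29.0, against 28.8 on day 1 and 21.5 on day 7. As gained peaks, the 5 overlapped no day 0 peak by definition. The nearest day 0 peak lay 764 bp from the peak at chr2:72152305-72154502 and 10327 to 29205 bp from the others. At its day 3 background, 60 reads would have passed the day 0 limit at the last one.

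Lost peaks with the highest folds had lower folds and fewer reads than the leading gained ones, while the tallest lost summit in the list, of lower fold, held 175 reads. The 10 lost peaks with the highest folds had 40 to 47 summit reads, folds of 5.58 to 6.54 and widths of 351 to 447 bp. The leading pair were chr5:60351285-60351645 with 47 reads and chr20:2401891-2402268 with 46 reads. Below the limit of 6 followed chr2:238041482-238041881, chr11:83530985-83531335 and chrX:19551279-19551632 with 43, 42 and 42 reads. The remaining 5 lay at chr2:172991983-172992385, chr16:21930683-21931046, chr6:134477872-134478306, chr10:17417961-17418358 and chr10:50489463-50489909, with 45, 41, 40, 40 and 40 reads.

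Most of these sites were called again on another induced day. Of the 10, 9 overlapped a day 1 peak and 6 a day 7 peak, and on day 0 9 stood at the genome-wide background. The share of all lost peaks called again on those days was not set beside these counts. At chr5:60351285-60351645 the day 1 and day 7 peaks held 46 reads each, close to the 47 of day 0, but their folds were 3.24 and 3.81 against 6.54, over a local background of 13.5 and 11.3 reads against 6.34. At chr2:238041482-238041881 the day 1 peak held 53 reads at a fold of 2.84, against 43 reads and 5.99 on day 0. The local background on day 3 at a site with no day 3 peak is not known from the list. At chr20:2401891-2402268 the background stayed at the genome-wide level and the summit went from 46 reads on day 0 to 33 on day 1 and 34 on day 7.

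Sites open on both days mostly kept their height. Merging overlapping peaks of both lists gave 67531 kept regions, each with its highest summit per day, and the median log2 ratio of scaled height, day 3 over day 0, was -0.08 with an SD over regions of 0.41. Summits at least 2-fold higher on day 3 numbered 2450 (3.63%) and at least 2-fold lower 46 (0.0681%). Rises were commonest at low day 0 summits. Of the 9305 regions with a day 0 scaled height of up to 5, 1067 (11.5%) rose by that much, of the 13514 from 8 to 12 315 did (2.33%), and of the 14908 above 20 none did. Low summits had to pass the calling limit on both days to be counted, so a fall from them could not be seen, and 0 of the 9305 fell 2-fold.

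The regions that rose 2-fold also became wide. Their median width went from 376 bp on day 0 to 896.5 bp on day 3, their scaled height from 5.20 to 15.8 and their fold from 3.31 to 5.92. Their local background was 1.65 times that of day 0 at the median, and by fold 642 of the 2450 were at least 2-fold higher. The 46 that fell went from 716 to 388.5 bp in width and from 11.0 to 5.06 in scaled height, over 0.718 times the local background. By fold 5 of these were at least 2-fold lower.

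The 5 highest rises began from 19 to 24 reads, barely above the smallest day 0 summit of 18. At chr4:4811806-4813186 the summit went from 20 reads on day 0 to 181 on day 3, 8.54-fold after scaling (5.37 to 14.3), and the peak from 228 to 1381 bp. It held 155 reads on day 1 and 111 on day 7. At chr21:30486847-30487913 the reads went from 21 to 162, a 7.28-fold rise (4.60 to 12.1), with 89 reads on both day 1 and day 7. The region chr2:149030601-149031548 rose from 23 to 174 reads, 7.13-fold (4.60 to 11.6), and its fold was 3.31 times that of day 0. At chr5:149294911-149295773 the reads went from 19 to 141, a 7.00-fold rise with a lower bound of 4.32. At chr5:125004395-125005331 they went from 24 to 176, a 6.92-fold rise (4.50 to 11.1), with 176 also on day 1 and 98 on day 7. By fold these 5 regions rose 2.42 to 3.65 times, since the local background rose by 1.97 to 3.32 times.

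The 5 largest falls were sought among kept regions only, so a day 3 peak remained at each by definition. At chr7:38916123-38916870 the summit went from 131 to 46 reads, or to 0.331 of day 0 (0.231 to 0.467). At chr2:178563062-178563994 it went from 91 to 34, or to 0.352 (0.230 to 0.528), and the peak narrowed from 933 to 307 bp. A second region on chromosome 7, chr7:38895465-38895972, went from 70 to 29 reads, or to 0.391 (0.244 to 0.610). At chr13:100887590-100888402 the ratio was 0.416 (0.286 to 0.596) and at chr19:50249466-50249833 0.424 (0.268 to 0.656). Rises and falls were picked as the largest of 67531, and the intervals do not allow for that choice.

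Since 2 of the 5 falls lay close together on chromosome 7, the stretch of 50 kb on either side of the first was examined, chosen after these values were seen. It held 19 peaks on day 0 and 16 on day 3, with 8 lost and 4 gained. Of its 11 kept regions 10 were lower on day 3, and in 5 the interval of the ratio lay wholly below 1. Without the 2 falls that led to the choice of the stretch, 8 of 9 were lower and 3 had such an interval. Over all 67531 kept regions, 62.1% were lower on day 3 and 2.94% had such an interval. Besides the 2 named falls, the ratio was 0.517 (0.342 to 0.770) at chr7:38882934-38883346, 0.602 (0.449 to 0.801) at chr7:38903096-38903872 and 0.872 (0.676 to 1.12) at chr7:38948162-38949252, the tallest region on day 3. The region that was higher, chr7:38870805-38871517, had a ratio of 1.31 (0.862 to 2.01). Among the lost peaks chr7:38904544-38905611 was 1068 bp wide with 81 reads. On day 7 the central peak was back at 111 reads and a peak of 74 reads overlapped the lost wide one.

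Few windows had fewer peaks on day 3, the day with the longer list, and by small numbers. The largest net loss in a 100 kb window was 6 peaks. At chr10:22600001-22700000 there were 24 peaks on day 0 and 18 on day 3, with 8 lost and 2 gained. Its highest day 0 summit, at chr10:22657398-22658776, held 198 reads against 125 on day 3, and the next, at chr10:22639408-22641173, 194 against 179. At chr4:3300001-3400000 the counts were 9 and 3 with 6 lost, and at chr1:2300001-2400000 they were 16 and 10. Both the last windows had more peaks again on day 7, with 6 and 15.

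Chromosomes differed in their share of gained peaks and less in their share of lost ones. Chromosome 13 had the highest share gained, at 49.3% (47.4 to 51.1) of its 2859 day 3 peaks, and chromosome 19 the lowest, at 23.4% (22.1 to 24.6) of 4602. Chromosomes 17 and 16 came next from below, at 34.9% and 36.4%. Strong peaks had the same extremes, with 28.9% of 595 gained on chromosome 13 and 6.16% of 666 on chromosome 19. Chromosome 19 had 1.13 times as many peaks on day 3 as on day 0 and chromosome 13 1.62 times. Such shares also depend on how many day 0 peaks a chromosome has, 1768 on chromosome 13 and 4076 on chromosome 19. The gained peaks numbered 1409 and 1075, and gains per Mb were not computed. The share of day 0 peaks lost lay between 11.4% (9.95 to 13.1) on X and 17.3% (15.6 to 19.2) on chromosome 13. Peaks of 1 chromosome are not independent, so these intervals may be too narrow.

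**Figure D5:**
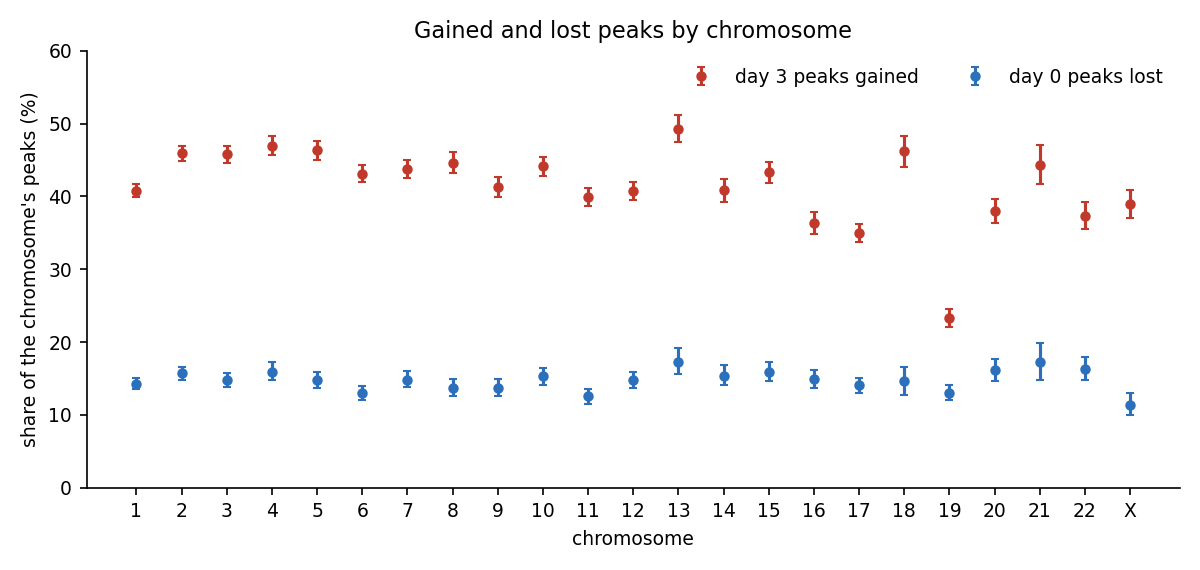
Share of each chromosome's day 3 peaks gained (red) and day 0 peaks lost (blue), in percent, with exact 95% binomial intervals; Y is left out. Gained shares run from 23.4% on chromosome 19 to 49.3% on chromosome 13, while lost shares stay between 11.4% and 17.3%.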

How the data were processed

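ATAC-seq was done on 2 replicates per day, and the deposited file joins 4 peak lists, of which days 0 and 3 are compared. Per the submitters' processing notes, Bowtie2, deepTools and MACS2 2.1.1.20160309 were used with hg19. The sources used here do not give filters, transposase offset or pooling of replicates. The deposited score is 10 times the -log10 q in nearly all peaks, cut to whole numbers. The authors' fold is a ratio of summit to local background. Each deposited p-value and q-value is on a -log10 scale, and the summit offset is the authors' too.

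Summit reads were recovered with the caller's formulas: 1 is added to reads and to background before their ratio gives the fold, and p is a Poisson tail. A single whole number matched each peak within 0.005 in -log10 p. The commonest background of a list served as its genome-wide background. Overlaps were checked with bedtools 2.31.1. Shares have exact Clopper-Pearson intervals, medians binomial order-statistic intervals, and ratios of reads exact conditional binomial intervals. PCR copies would make these too narrow. The code was tested on simulated data. Alternative overlaps, limits, list lengths and scalings were tried. Named loci were the 10 gained and 10 lost peaks of highest fold, 5 largest rises and falls among regions whose higher day reached its list's median height, 5 largest groups (ties by fold), 5 farthest strong gains, 5 widest gains and the bridging peaks. The comparison, lists and rules were chosen with earlier results of these data known. Coordinates are 1-based hg19. Scripts ran in Python 3.11.15 with SciPy 1.17.1, pandas 2.3.3 and NumPy 2.4.6.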

Additional observations from a re-analysis of the deposited data

How the results depend on the processing

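No paired analysis was possible because the deposited file holds 1 peak list per day, with no value per replicate, and for the same reason no replicate could be left out. With a reciprocal overlap of at least 50%, 76.5% of day 0 peaks were kept, 18997 were lost, 108 strong ones among them, gained peaks had a median width of 374 bp and a distance of 6869 bp, lost peaks a width of 277 bp, and 939 kept pairs were at least 2-fold higher. Counting peaks within 500 bp as overlapping gave 87.1% kept. With a -log10 q of at least 5 in both lists, 87.0% were kept, the median widths were 414 bp for gained and 290 bp for lost peaks, and the distance was 9676 bp. With the day 3 list cut to the length of the day 0 list, 72.0% were kept, 23598 gained and 22621 lost, counts that equal lengths force to be nearly equal. A fold of at least 5 gave 7805 strong gains and 39 strong losses, and a scaled height of at least 10 gave 7699 and 1138. By the authors' fold 650 kept regions were at least 2-fold higher, and with reads scaled to their median 70 were at least 2-fold lower. Gaps of at most 5000 and 20000 bp put 3907 and 25076 gained peaks in groups of at least 3. The other alternatives left their counts within 1.5 times those reported. Depth limits the low end, where summits held 17 or 18 reads and gains or losses of single weak peaks carry wide counting error.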
